A study of Mus musculus with 18 samples.

Results

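The VEGF ligands and receptors described here are 7 genes of the 22180 with a gene symbol on the array: the ligands Vegfa, Vegfb, Vegfc and Pgf and the receptors Kdr, Flt1 and Flt4. They were taken by symbol. Each had 1 probe set, and all 7 passed the filter on dim genes, which asked for at least 3 arrays above their own 40th percentile. Pgf exceeded that percentile on 14 of 18 arrays and the other members on all 18.

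The study, by its title, asked about the origin of a rhabdomyosarcoma driven by hedgehog signalling. Cells were sorted by flow cytometry from digested mouse tissue into 5 populations, and RNA of each sorted sample was amplified and hybridised to 1 array. Every mouse carried the transgene aP2-Cre, in which the Fabp4 promoter drives Cre recombinase, known to be active in adipocyte and endothelial lineages, and a tdTomato reporter that Cre switches on, so Tom+ marks cells in which, or in whose precursors, Cre was active. Normal sternocleidomastoid, a neck muscle, came from aP2-Cre/+;tdTomato/+ mice of strain B6;SJL at postnatal day 21 (1 Tom+ label, repeat 1, reads tdTomato without the second allele) and was split into Tom+ and Tom- cells (n = 3 each) without a sort on Pecam1. Rhabdomyosarcoma, a tumor with skeletal muscle features and labelled as mouse tumor, came from mice of strain BJ;SJL;B6.129 that also carried SmoM2/+, a constitutively active Smoothened allele, at postnatal day 48 (repeats 1 to 3) or 38 (repeat 4), and gave Tom-/Pecam1-, Tom+/Pecam1- and Tom+/Pecam1+ cells (n = 4 each). Pecam1 is a surface protein of endothelial cells, so the sort itself enriches endothelium. Tumor cells that were Tom- and Pecam1+ are not analysed here. SmoM2, strain and age differ together between tumor and muscle and cannot be told apart. The labels call the arrays of a population biological repeats without saying which share an animal, so p-values measure the spread between these samples, and precision is limited by how few arrays there are.

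VEGF ligands are secreted dimers that bind receptor tyrosine kinases on endothelial cells. Kdr (VEGFR2) carries most of the growth, survival and permeability signal of Vegfa, and Flt1 (VEGFR1) binds Vegfa, Vegfb and Pgf tightly with weak kinase activity, so that it can act as a decoy. Flt4 (VEGFR3) binds Vegfc and Vegfd and is best known from lymphatic vessels, although sprouting blood endothelium also carries it. In tissues, stromal and parenchymal cells commonly make Vegfa, and endothelium receives it.

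The upstream sequences of 5 members are shown because the 3 receptors and Vegfc were high in the same endothelial populations and Pgf in the opposite ones (values below). Each is the 250 bases before the transcription start in RefSeq, build GRCm38.p6, read 5′ to 3′ on the gene's strand, for Kdr (chr5:75978456-75978705, minus strand), Flt1 (chr5:147726012-147726261, minus strand), Flt4 (chr11:49609429-49609678, plus strand), Vegfc (chr8:54077282-54077531, plus strand) and Pgf (chr12:85177314-85177563, minus strand). Pgf and Vegfa have 2 starts in the table, of which the most upstream was used. Capitals mark GGAA or its reverse complement TTCC, the core that ETS factors bind, a family with known roles in endothelial genes.
Kdr: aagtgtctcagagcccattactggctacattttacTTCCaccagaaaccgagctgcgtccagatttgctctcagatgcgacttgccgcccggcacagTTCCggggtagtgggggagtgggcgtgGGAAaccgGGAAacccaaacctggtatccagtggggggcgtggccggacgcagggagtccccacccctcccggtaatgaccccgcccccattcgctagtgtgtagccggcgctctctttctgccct
Flt1: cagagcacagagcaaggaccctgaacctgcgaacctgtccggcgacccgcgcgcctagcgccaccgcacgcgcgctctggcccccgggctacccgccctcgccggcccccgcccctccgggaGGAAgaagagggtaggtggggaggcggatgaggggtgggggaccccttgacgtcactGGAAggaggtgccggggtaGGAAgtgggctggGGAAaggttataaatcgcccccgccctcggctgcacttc
Flt4: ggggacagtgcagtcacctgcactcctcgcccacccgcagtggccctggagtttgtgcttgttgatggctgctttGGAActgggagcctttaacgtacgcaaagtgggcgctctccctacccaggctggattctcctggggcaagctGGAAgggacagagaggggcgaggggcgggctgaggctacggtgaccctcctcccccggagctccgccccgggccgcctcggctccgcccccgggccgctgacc
Vegfc: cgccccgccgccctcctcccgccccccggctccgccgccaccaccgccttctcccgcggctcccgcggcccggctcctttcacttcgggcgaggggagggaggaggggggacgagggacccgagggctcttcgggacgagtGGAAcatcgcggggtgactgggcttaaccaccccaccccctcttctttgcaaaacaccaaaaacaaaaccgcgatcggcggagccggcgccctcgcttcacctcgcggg
Pgf: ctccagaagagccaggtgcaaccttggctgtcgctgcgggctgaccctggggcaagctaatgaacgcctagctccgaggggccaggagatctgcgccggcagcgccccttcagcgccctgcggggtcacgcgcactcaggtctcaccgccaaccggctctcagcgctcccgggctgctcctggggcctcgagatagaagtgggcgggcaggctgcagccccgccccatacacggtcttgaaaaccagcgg
On both strands the core occurred 4 times upstream of Kdr, 4 times upstream of Flt1, 2 times upstream of Flt4, 1 time upstream of Vegfc and 0 times upstream of Pgf. Upstream of the ligands Vegfa and Vegfb it occurred 6 times and 1 time. Because the core is short, 93.4% of 32851 windows of this length held it, with a median of 3 matches, so these counts do not set the receptors apart. Flt1 held 1 palindromic cyclic AMP response element, TGACGTCA, which 1.5% of windows held. The ACGTG form of the HIF core, bound by hypoxia-inducible factors, had 0 matches on either strand in these windows of the 7 members. It was held by 16.6% of all windows. Only this form was searched, so the count leaves out GCGTG and any sequence further upstream. GCGTG or its reverse complement CACGC occurs in the Kdr, Flt1 and Pgf windows above, and in that of Vegfb. GC boxes, GGGCGG or CCGCCC, numbered 2 to 4 in each member and were present in 32.7% of windows.

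**Figure D1:**
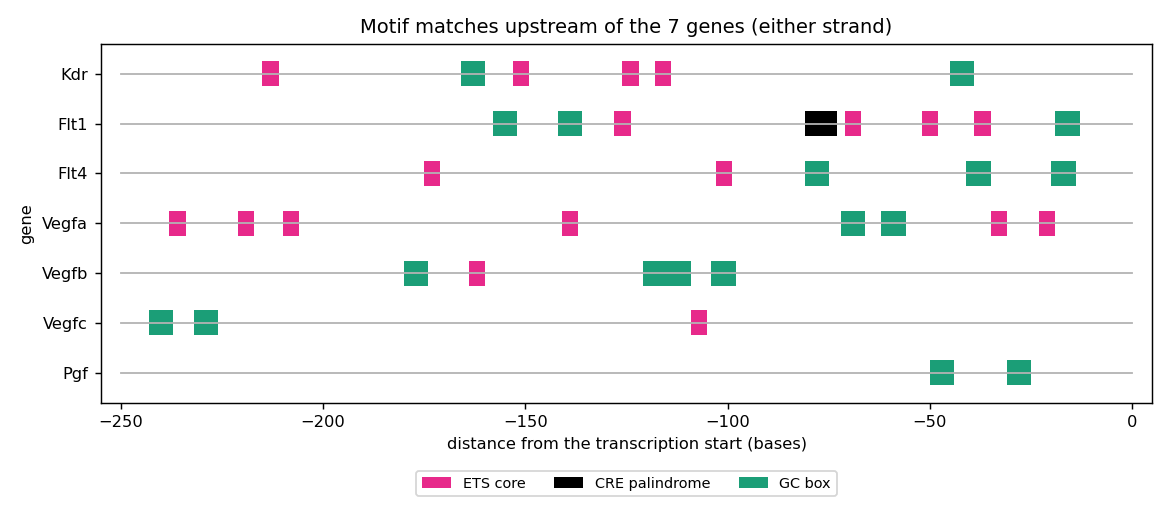
Positions of motif matches on either strand in the 250 bases upstream of each member, with distance from the transcription start in bases on the horizontal axis. Coloured blocks are ETS cores, the palindromic cyclic AMP element and GC boxes; Pgf has 0 ETS cores and Vegfa has 6.

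The identity of the populations was checked on 8 endothelial markers (Pecam1, Cdh5, Tie1, Tek, Emcn, Eng, Esam and Cldn5), whose mean level per array, centred on the array median, was 10.82 to 11.03 in muscle Tom+, 10.65 to 11.28 in tumor Tom+/Pecam1+, 7.58 to 7.93 in muscle Tom- and 6.30 to 6.97 in both Pecam1- tumor populations. Muscle Tom+ cells are thus endothelial by these markers, although their label names only the reporter. Several libraries stood apart. In tumor Tom+/Pecam1+ repeat 4, the day 38 tumor, the endothelial list was 10.65 against 10.99 to 11.28 in repeats 1 to 3, and the list of 6 macrophage and monocyte markers was 7.04 against 6.14 to 6.30. A list of 8 salivary gland genes averaged 6.39 to 8.33 in the muscle arrays of repeats 1 and 2, 4.96 and 5.03 in those of repeat 3 and 4.30 to 4.48 in tumor, so the results that use muscle for the 10 VEGF genes and coreceptors, the pathway lists and the named pathway genes were also computed without muscle repeats 1 and 2. Marker lists were not. The mean over the 3 tumor populations of each repeat was the same at all 41345 probe sets within 7.67e-05, so a value that is high in 1 population lowers the others of that repeat. Differences between tumor populations are unaffected, but their p-values tend to be too small. Spread between tumor repeats is also missing from the tumor against muscle tests. All arrays share 1 fit, so the muscle test and the difference of differences are affected too. The p-values of these tests may be too small as well, and a random block cannot restore the missing spread. The fit with repeat number as a block was run for the same genes and lists. It is given where it ends the call of a gene named here or changes a list count given here.

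Taken by mean level, the receptor transcripts and Vegfc were high in the endothelial populations of both tissues, and Vegfa, Vegfb and, in tumor, Pgf were high outside them. Flt1 and Kdr were 19.8-fold and 20.8-fold higher in muscle Tom+ than Tom- cells and 25.9-fold to 44.1-fold higher in tumor Tom+/Pecam1+ cells than in the Pecam1- populations. Vegfa was 2.50-fold lower in muscle Tom+ cells and 2.82-fold and 4.16-fold lower in tumor Tom+/Pecam1+ cells. Values are log2 intensities, so a difference of 1 is a 2-fold change, and levels of different genes on the array cannot be set against each other. In sorted bulk samples, fewer cells of a type and less RNA per cell cannot be told apart.

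**Figure D2:**
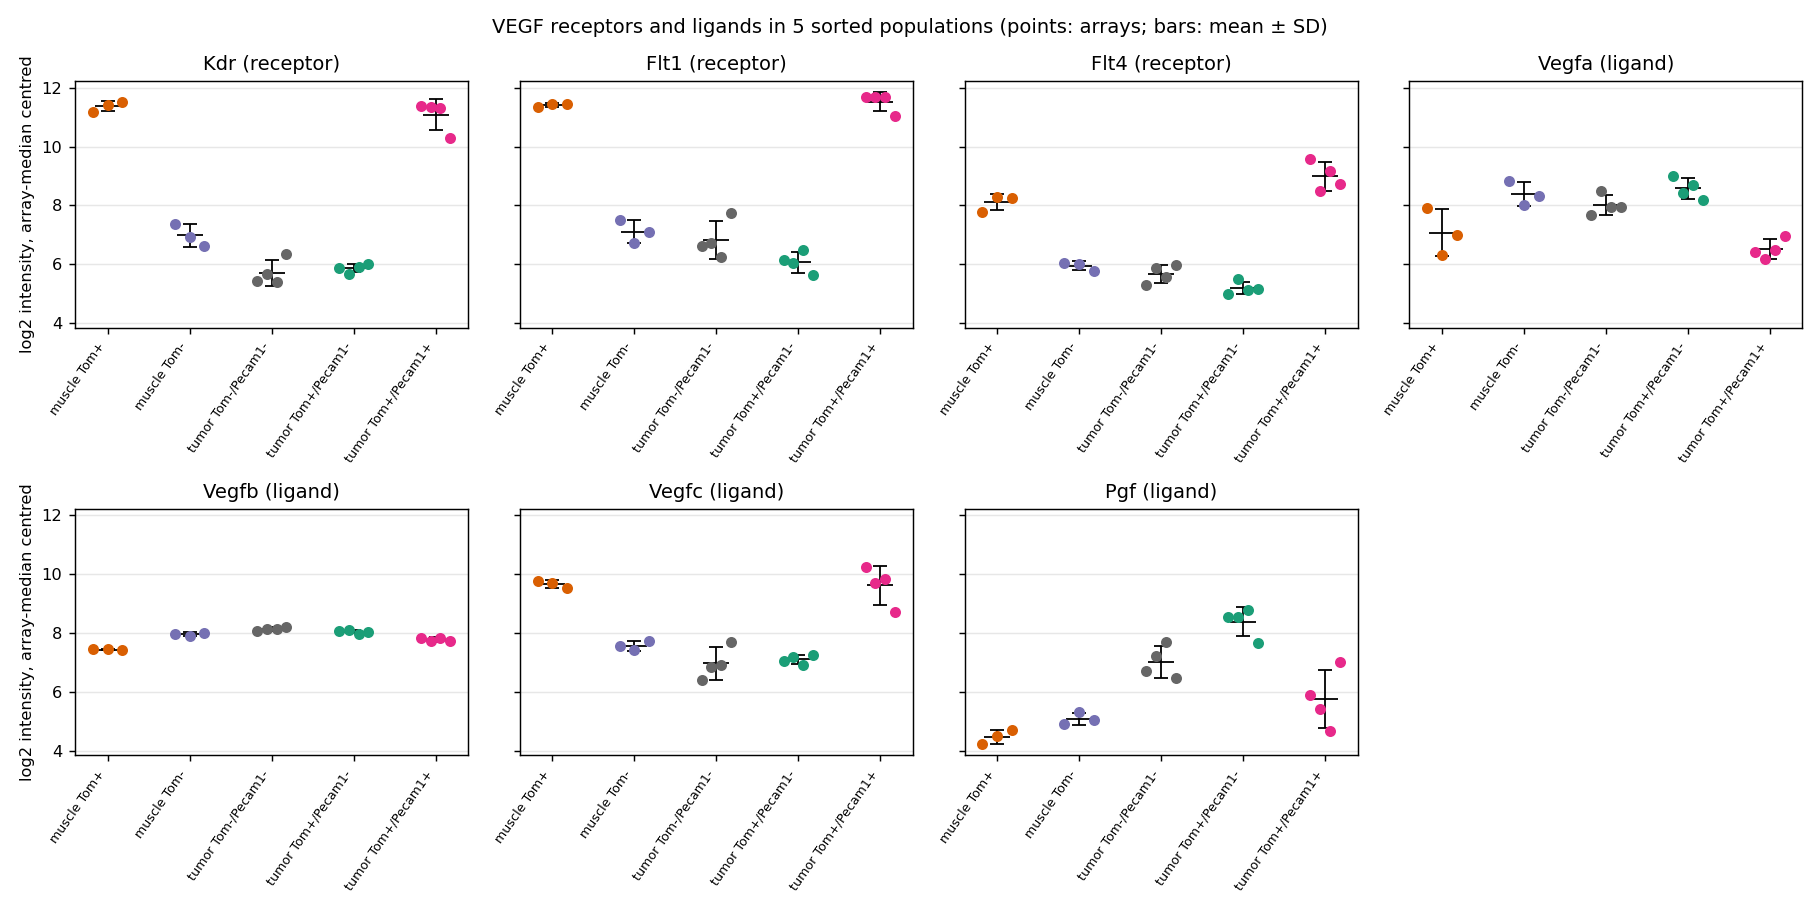
Log2 intensity of each member, centred on the array median, by sorted population; points are arrays in order of repeat number and bars are mean ± SD (n = 3 in muscle, n = 4 in tumor). Kdr, Flt1, Flt4 and Vegfc are highest in muscle Tom+ and tumor Tom+/Pecam1+, and Pgf is highest in tumor Tom+/Pecam1-.

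Kdr, the main signalling receptor, read 10.87, 11.06 and 11.14 in muscle Tom+ repeats 1, 2 and 3, and 7.05, 6.63 and 6.26 in muscle Tom-. In tumor it read 11.37, 11.35, 11.34 and 10.32 in Tom+/Pecam1+ repeats 1 to 4, 5.46, 5.66, 5.42 and 6.36 in Tom-/Pecam1-, and 5.86, 5.68, 5.93 and 6.01 in Tom+/Pecam1-. Every endothelial array was above every other array, and within the tumor endothelium repeat 4 alone was lower. The limma difference was 4.38 (SE 0.27, adjusted p 1.05e-09) in muscle. In tumor it was 5.37 (SE 0.24, adjusted p 8.28e-12) against Tom-/Pecam1- and 5.23 (SE 0.24, adjusted p 1.06e-11) against Tom+/Pecam1-. Within repeats of tumor the difference against Tom-/Pecam1- ranged from 3.96 in repeat 4 to 5.93.

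Flt1, the tight-binding receptor, followed the same order. It read 11.03, 11.12 and 11.08 in muscle Tom+ and 7.17, 6.41 and 6.73 in muscle Tom-. Tumor arrays read 11.69, 11.69, 11.71 and 11.07 in Tom+/Pecam1+, 6.64, 6.73, 6.24 and 7.76 in Tom-/Pecam1-, and 6.13, 6.04, 6.51 and 5.63 in Tom+/Pecam1-. Endothelial and other arrays did not overlap. Repeat 4 was the lowest of the tumor endothelium and the highest of the Tom-/Pecam1- arrays. Because the mean of each tumor repeat was equal, such opposite deviations of 1 repeat, here and below, are not separate observations. The difference was 4.30 (SE 0.30, adjusted p 4.58e-09) in muscle, 4.70 (SE 0.26, adjusted p 1.56e-10) against Tom-/Pecam1- and 5.46 (SE 0.26, adjusted p 2.23e-11) against Tom+/Pecam1-.

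Flt4, the receptor for Vegfc, had the smallest endothelial difference of the 3 receptors in each of these comparisons. It read 7.48, 7.96 and 7.87 in muscle Tom+ and 5.73, 5.70 and 5.42 in muscle Tom-. Its tumor values were 9.58, 8.51, 9.17 and 8.74 in Tom+/Pecam1+, 5.30, 5.87, 5.57 and 5.99 in Tom-/Pecam1-, and 5.01, 5.51, 5.15 and 5.16 in Tom+/Pecam1-. Again the endothelial arrays were above all others. The difference was 2.15 (SE 0.24, adjusted p 9.27e-07) in muscle, 3.32 (SE 0.20, adjusted p 5.07e-10) against Tom-/Pecam1- and 3.80 (SE 0.20, adjusted p 8.34e-11) against Tom+/Pecam1-. The 4 lymphatic endothelial markers (Prox1, Lyve1, Pdpn and Reln) averaged 5.43 to 5.87 in muscle Tom+ and 6.14 to 6.63 in tumor Tom+/Pecam1+, below the 7.63 to 8.58 of the other populations. This list was thus highest where the 8 endothelial markers were lowest, so it cannot be read as a measure of lymphatic endothelium alone.

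Among the ligands, Vegfc, the growth factor that acts through Flt4, was high where the receptors were. It read 9.46, 9.38 and 9.15 in muscle Tom+ against 7.23, 7.10 and 7.38 in Tom-, a difference of 2.09 (SE 0.31, adjusted p 2.88e-05). In tumor it read 10.26, 9.70, 9.87 and 8.74 in Tom+/Pecam1+, 6.42, 6.84, 6.94 and 7.71 in Tom-/Pecam1-, and 7.06, 7.19, 6.92 and 7.28 in Tom+/Pecam1-. The groups did not overlap, and repeat 4 was again the lowest of the endothelium and the highest of both Pecam1- populations. The differences were 2.67 (SE 0.27, adjusted p 2.85e-07) and 2.53 (SE 0.27, adjusted p 4.83e-07). With muscle repeats 1 and 2 left out, which leaves 1 array per muscle population, assumed to vary like the others, the muscle difference was 1.77 (adjusted p 0.056).

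Vegfa, the principal ligand of Kdr and Flt1, showed the opposite distribution. It read 7.60, 5.98 and 6.63 in muscle Tom+ and 8.50, 7.69 and 7.97 in muscle Tom-, and fell by 1.32 (SE 0.34, adjusted p 0.0042) in the Tom+ cells. The groups did not overlap, with Tom+ repeat 1 just below the lowest Tom- array. The 7 pericyte and smooth muscle markers (Rgs5, Cspg4, Kcnj8, Abcc9, Pdgfrb, Acta2 and Myh11) averaged 9.36, 7.91 and 8.98 in muscle Tom+ repeats 1, 2 and 3, and 10.20 to 10.32 in muscle Tom-, so the Tom+ array with the highest Vegfa also had the highest level of this list, of which 4 of 7 genes were called lower (median difference -1.78). Fibroblast markers were lower in 6 of 6 (median -5.01, list means of 5.69 to 6.49 against 10.96 to 11.09), and myogenic markers in 6 of 6 (median -2.90, list means of 5.69 to 6.01 against 8.68 to 9.03). Tenocyte (4 of 4), neutrophil (4 of 4), Schwann and glial (3 of 3) and macrophage and monocyte (4 of 6) markers were lower too, with 0 higher. Of the mast cell markers 3 were lower and 1 higher. The part of these lists in the Vegfa result was not tested.

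In tumor, Vegfa read 9.01, 8.44, 8.70 and 8.20 in Tom+/Pecam1-, 7.70, 8.51, 7.94 and 7.94 in Tom-/Pecam1-, and 6.43, 6.20, 6.49 and 7.0 in Tom+/Pecam1+. All 8 Pecam1- arrays were above all 4 endothelial arrays. Vegfa fell by 2.06 (SE 0.29, adjusted p 1.51e-05) in the endothelium against Tom+/Pecam1- and by 1.49 (SE 0.29, adjusted p 0.000447) against Tom-/Pecam1-. Between the Pecam1- populations the difference was 0.56 (95% confidence interval -0.05 to 1.18, adjusted p 0.175), and their arrays overlapped. In endothelium, pericyte and smooth muscle (7 of 7), fibroblast (6 of 6) and myogenic (6 of 6) markers were lower than in either Pecam1- population. Macrophage and monocyte markers were lower in 6 of 6 against Tom-/Pecam1- and 5 of 6 against Tom+/Pecam1-, with 0 higher. Neutrophil markers were lower in 4 of 4 and 0 of 4. The part of these lists was not tested.

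Vegfb, a ligand of Flt1 linked to fatty acid uptake in muscle endothelium, varied little within each population. It read 7.14, 7.13 and 7.05 in muscle Tom+ and 7.64, 7.58 and 7.66 in muscle Tom-, and fell by 0.52 (SE 0.08, adjusted p 3.13e-05), a 1.44-fold change. The tumor arrays gave 7.84, 7.73, 7.87 and 7.75 in Tom+/Pecam1+, 8.08, 8.15, 8.16 and 8.20 in Tom-/Pecam1-, and 8.08, 8.12, 7.98 and 8.05 in Tom+/Pecam1-. Endothelial arrays were the lowest in both tissues, without overlap. The tumor differences were -0.35 (SE 0.07, adjusted p 0.000383) and -0.26 (SE 0.07, adjusted p 0.0045), small in size although larger than the spread between arrays.

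Pgf, placental growth factor, which binds Flt1 and not Kdr, was the member that differed most between the tissues outside endothelium. It read 8.54, 8.54, 8.79 and 7.69 in tumor Tom+/Pecam1-, 6.74, 7.22, 7.70 and 6.47 in Tom-/Pecam1-, and 5.91, 5.43, 4.71 and 7.04 in Tom+/Pecam1+. Repeat 4 had the lowest value of both Pecam1- populations and the highest of the endothelium, where it overlapped the Tom-/Pecam1- arrays. Pgf fell by 2.62 (SE 0.38, adjusted p 1.89e-05) in endothelium against Tom+/Pecam1- and by 1.26 (SE 0.38, adjusted p 0.0121) against Tom-/Pecam1-. In a fit of only those groups the adjusted p of the latter was 0.0554. In muscle it read 3.92, 4.17 and 4.33 in Tom+ and 4.57, 5.01 and 4.69 in Tom-, and the difference of -0.62 (95% confidence interval -1.54 to 0.30, adjusted p 0.289) was not called, although the arrays did not overlap. Fitted on the muscle groups alone, the same difference had an adjusted p of 0.016. Muscle Tom+ arrays lay at the 28.7th to 37.1th percentile of their own values, so Pgf was among the dim probe sets there.

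Counted over the 7 members, 4 were called higher and 2 lower in muscle Tom+ than Tom- cells, where 39.7% of the 16011 genes tested were called in either direction (19.1% higher and 20.5% lower). All 7 had groups that did not overlap, as had 48.6% of genes. In tumor, Tom+/Pecam1+ cells had 4 members higher and 3 lower than Tom-/Pecam1- cells (41.7% of genes called, 20.5% higher and 21.2% lower) and likewise 4 higher and 3 lower than Tom+/Pecam1- cells (44.6% of genes called, 3360 genes higher and 3776, or 23.6%, lower). Groups did not overlap for 6 members in the former (37.6% of genes) and for 7 in the latter (42.6% of genes). The higher members were Kdr, Flt1, Flt4 and Vegfc in each. The median difference over the members was 2.09, 2.67 and 2.53 in these comparisons, and over all genes tested it was -0.0022, 0.022 and 0.0052. The last 2 comparisons share the Tom+/Pecam1+ arrays.

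**Figure D3:**
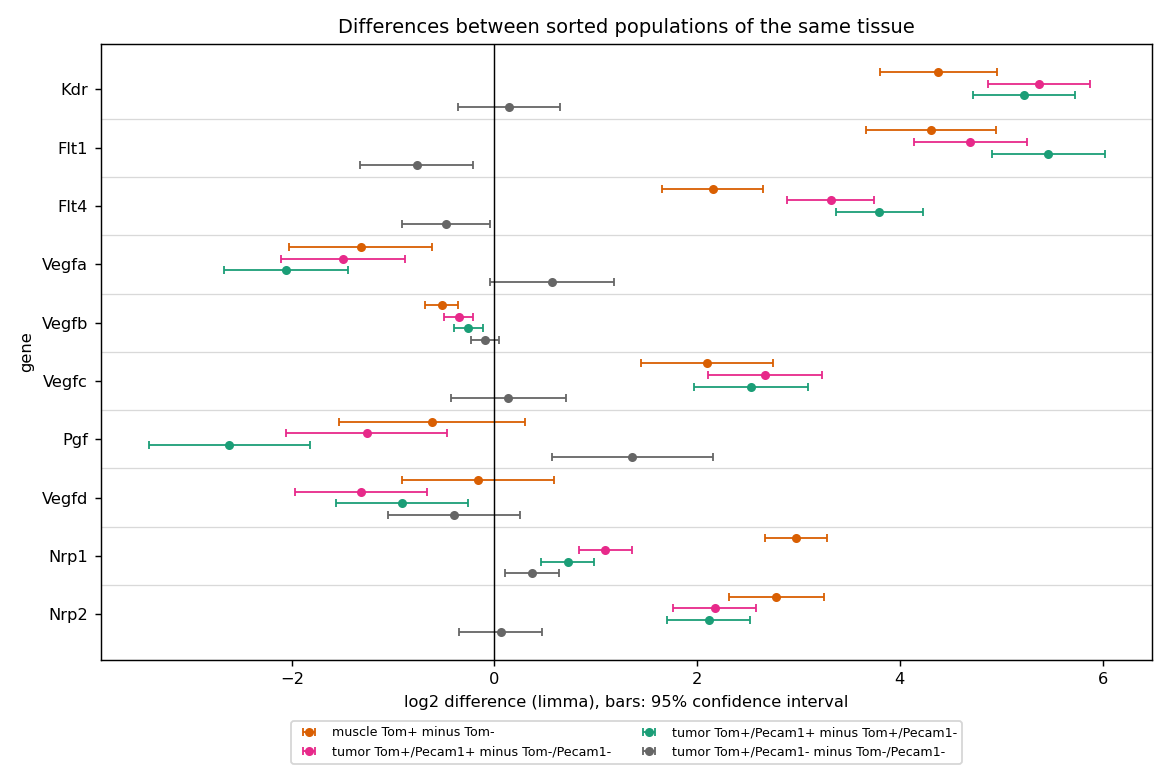
Differences in log2 intensity between populations of the same tissue for the 7 members, Vegfd and the coreceptors Nrp1 and Nrp2; points are limma estimates and bars are 95% confidence intervals. Receptor differences are to the right of 0 in the 3 endothelial comparisons, and the Vegfa and Vegfb differences are to the left.

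The Pecam1- tumor populations were compared with each other, which sets reporter-marked against unmarked cells, both sorted as Pecam1-. Of the 7 members, Pgf was called higher and Flt1 lower in Tom+/Pecam1- cells, where 25.4% of all genes were called, 13.4% higher and 12.0% lower. Groups without overlap were found for 0 members and 27.8% of genes. Pgf differed by 1.36 (SE 0.38, adjusted p 0.0132) and was higher in 4 of 4 repeats, by 1.10 to 1.80, although Tom+/Pecam1- repeat 4 (7.69) was just below Tom-/Pecam1- repeat 3 (7.70). Flt1 differed by -0.77 (SE 0.26, adjusted p 0.0412), with overlapping arrays, and was lower in 3 of 4 repeats. With the repeat number as a block, which leaves no member called, the adjusted p was 0.0556 for Pgf and 0.116 for Flt1. The Flt1 call also ended without tumor repeat 4 (-0.31, adjusted p 0.223), without any 1 array of repeats 1, 2 and 4 of either population (-0.84 to -0.46), without the filter (adjusted p 0.0511) and in a fit of these groups only (adjusted p 0.0948). Markers of other cells moved with these populations: all 6 myogenic markers (Pax7, Myf5, Myod1, Myog, Des and Cdh15) were higher in Tom+/Pecam1-, with list means of 8.72 to 9.27 against 6.89 to 8.10, and all 6 macrophage and monocyte markers were lower, with list means of 8.13 to 8.49 against 9.58 to 10.34. All 4 neutrophil markers (S100a8, S100a9, Retnlg and Cxcr2) were lower too, with list means of 4.61 to 5.45 against 8.66 to 9.95. Mast cell markers were lower in 4 of 4 (median difference -3.39), tenocyte markers in 3 of 4 (median -2.95) and Schwann and glial markers in 3 of 3 (median -1.62). Of the endothelial markers 2 of 8 were higher and 0 lower (median 0.28, list means of 6.65 to 6.97 against 6.30 to 6.83) and Cdh5 was 2.11-fold higher (adjusted p 0.0021). Their part in these results was not tested.

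**Figure D4:**
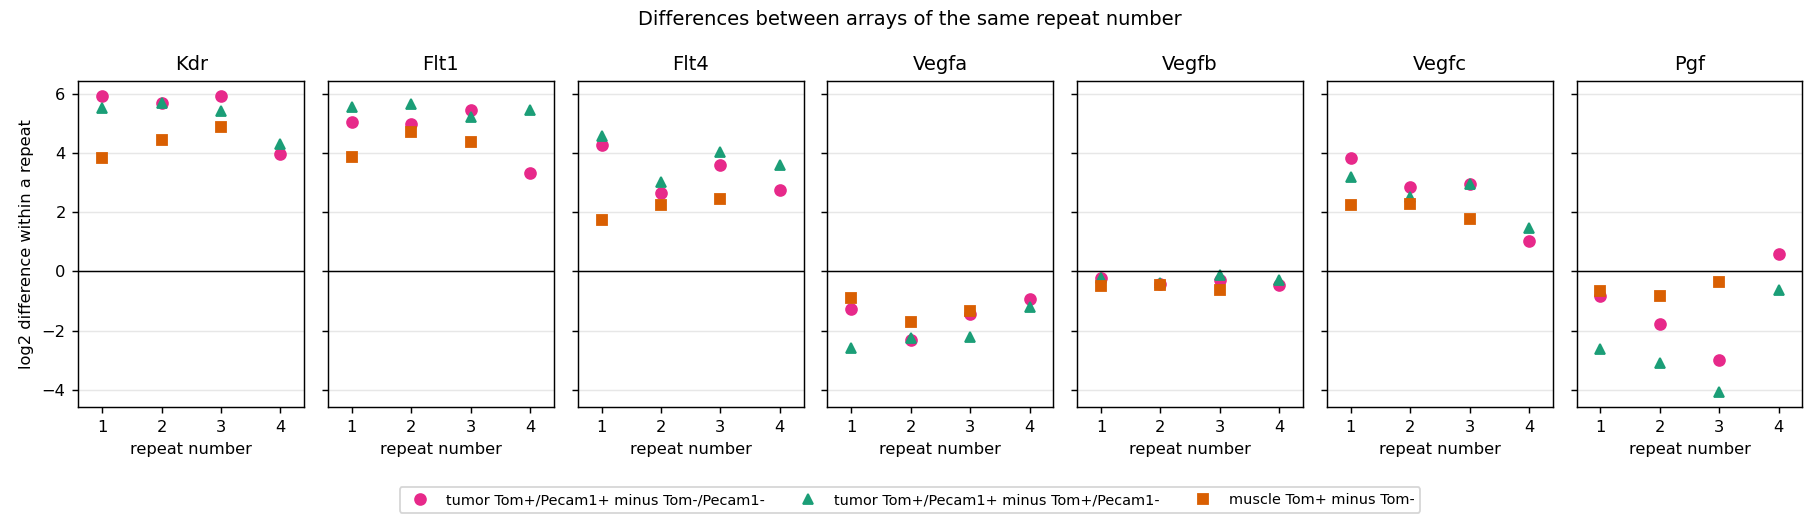
Differences in log2 intensity between arrays of the same repeat number (horizontal axis), 1 panel per member, for muscle Tom+ against Tom- and for tumor Tom+/Pecam1+ against each Pecam1- population. In tumor repeat 4, from the day 38 tumor, the Kdr, Vegfc and Pgf differences are smaller in size than in the other tumor repeats, and the Pgf difference against Tom-/Pecam1- is 0.57 where the others are negative.

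Endothelium was compared between tissues on values centred on the array median, since array medians were 5.04 to 5.10 in muscle and 5.41 to 5.44 in tumor. Of the 7 members, Flt4, Vegfb and Pgf were called higher and 0 lower in tumor Tom+/Pecam1+ than in muscle Tom+ cells, where 34.2% of all genes were called, 15.7% higher and 18.5% lower. Groups did not overlap for 2 members (Flt4 and Vegfb) and 37.2% of genes. Centred Flt4 was 9.58, 8.50, 9.16 and 8.72 in tumor endothelium and 7.79, 8.30 and 8.25 in muscle Tom+, without overlap, a difference of 0.88 (SE 0.22, adjusted p 0.0062) or 1.84-fold. Lymphatic markers moved with it: 3 of the 4 were higher in tumor endothelium and 0 lower, with list means of 6.14 to 6.63 against 5.43 to 5.87. Pericyte and smooth muscle markers were lower in 5 of 7 and higher in 0 (median -1.14). Fibroblast markers were higher in 2 of 6 and lower in 0, and Schwann and glial markers lower in 2 of 3 and higher in 0. Macrophage and monocyte markers were higher in 1 and lower in 2 of 6. The part of these lists in the results of Flt4 and the other members, Vegfa included, was not tested. Centred Vegfb was 7.84, 7.72, 7.85 and 7.73 against 7.46, 7.46 and 7.42, a difference of 0.34 (SE 0.07, adjusted p 0.0023).

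Centred Pgf was 5.91, 5.42, 4.69 and 7.02 in tumor endothelium against 4.24, 4.50 and 4.70 in muscle Tom+, a difference of 1.28 (SE 0.41, adjusted p 0.0221). Tumor repeat 3 overlapped muscle, and the call ended without tumor Tom+/Pecam1+ repeat 4 (0.86, adjusted p 0.058), without muscle Tom+ repeat 1 (1.16, adjusted p 0.0769) and without muscle Tom+ repeat 2 (1.29, adjusted p 0.0539). Fitted on these groups alone, Pgf had an adjusted p of 0.0568. Kdr (-0.28, 95% confidence interval -0.83 to 0.26), Flt1 (0.11, -0.50 to 0.71), Vegfa (-0.56, -1.21 to 0.10) and Vegfc (-0.042, -0.66 to 0.57) were not called. Kdr on deposited values was 0.069 and Vegfc 0.31, so the sign of both depends on the scaling. Of all calls in this comparison 45.8% were higher in tumor on centred values and 90.5% on deposited values. Without muscle Tom+ repeat 2, which had the lowest Vegfa and the lowest pericyte list, Vegfa differed by -0.94 (adjusted p 0.0303). Without muscle repeats 1 and 2, Vegfb alone was called; the Flt4 difference was then 0.74 (adjusted p 0.168) and that of Pgf 1.06 (adjusted p 0.316).

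**Figure D5:**
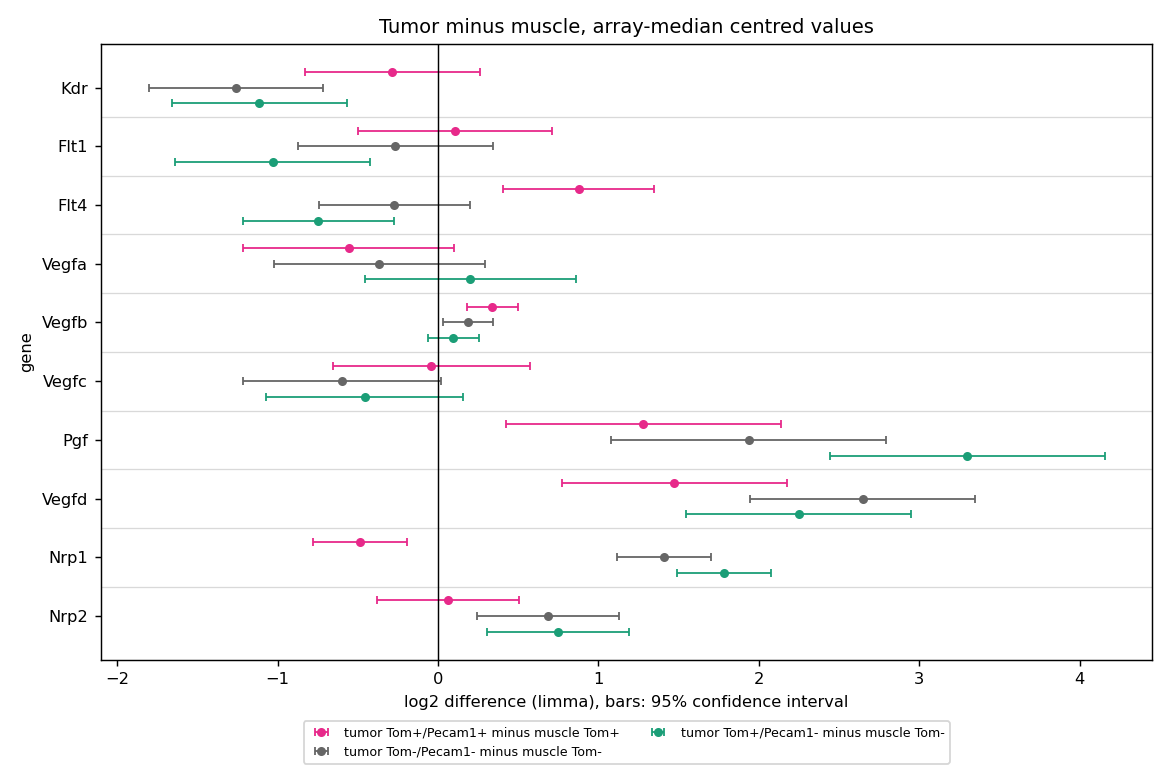
Differences in log2 intensity between tumor and muscle populations on array-median centred values; points are limma estimates and bars are 95% confidence intervals. Pgf and Vegfd are to the right of 0 in all 3 comparisons, and Kdr is to the left of 0 with its interval in both comparisons with muscle Tom-.

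Outside endothelium, both Pecam1- tumor populations were set against muscle Tom- cells, which they share as control. In tumor Tom-/Pecam1- cells 2 members were called higher and 1 lower (48.7% of genes called, 23.8% higher and 24.9% lower), and in Tom+/Pecam1- cells 1 higher and 3 lower (47.1% of genes called, 24.1% higher and 23.0% lower). Groups did not overlap for 3 members (48.9% of genes) and 5 members (51.0% of genes). Of all calls, 48.8% and 51.2% were higher in tumor on centred values, against 83.5% and 84.2% on deposited values. Pgf was higher in both, by 1.94 (SE 0.41, adjusted p 0.000873) and 3.30 (SE 0.41, adjusted p 5.32e-06), that is 3.83-fold and 9.84-fold. On the centred scale Pgf was 6.47 to 7.69 in Tom-/Pecam1- and 7.68 to 8.79 in Tom+/Pecam1-, all above the 4.90, 5.32 and 5.05 of muscle Tom-. The call held under all 18 alternatives in each comparison. Markers of other cells moved too. In Tom-/Pecam1- against muscle Tom-, macrophage and monocyte markers were higher in 6 of 6 (median difference 2.45), neutrophil markers in 4 of 4 (median 2.26) and mast cell markers in 3 of 4, while myogenic markers were lower in 5 of 6 (median -1.23) and Schwann and glial markers in 3 of 3 (median -1.38). In Tom+/Pecam1- against muscle Tom-, macrophage and monocyte markers were higher in 3 of 6, and neutrophil (4 of 4), mast cell (4 of 4), tenocyte (3 of 4) and Schwann and glial (3 of 3) markers were lower. In both comparisons 7 of 8 endothelial and 4 of 7 pericyte and smooth muscle markers were lower. Their part in the Pgf result was not tested.

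Kdr was lower in both, by -1.26 (SE 0.26, adjusted p 0.000704) and -1.11 (SE 0.26, adjusted p 0.002), and Flt1 and Flt4 were lower in Tom+/Pecam1- by -1.03 (SE 0.29, adjusted p 0.0073) and -0.75 (SE 0.22, adjusted p 0.0112). Endothelial markers moved the same way: 7 of 8 were lower and 1 higher in each comparison, with list means of 7.58 to 7.93 in muscle Tom-, which was not depleted of Pecam1+ cells by the sort, and 6.30 to 6.97 in the tumor populations. Their part in the receptor results was not tested. Without muscle repeats 1 and 2, Kdr gave -0.91 (adjusted p 0.0998) and -0.76 (adjusted p 0.169), Flt1 -1.02 (adjusted p 0.111) and Flt4 -0.58 (adjusted p 0.235), and on deposited values Flt4 gave -0.41 (adjusted p 0.115). Vegfb was called higher in Tom-/Pecam1- at 0.19 (SE 0.07, adjusted p 0.0485), a call that ended under 11 of 18 alternatives. Vegfa was not called in either comparison (-0.37, 95% confidence interval -1.02 to 0.29, and 0.20, -0.46 to 0.86), nor was Vegfc (-0.60, -1.21 to 0.02, and -0.46, -1.07 to 0.16). Without tumor Tom-/Pecam1- repeat 4, Vegfc was called lower in that population (-0.85, adjusted p 0.0158) and Flt1 likewise (-0.57, adjusted p 0.0481). Vegfc was also called lower in Tom-/Pecam1- with array weights (-0.72, adjusted p 0.0204) and with a random repeat block (adjusted p 0.0482). In Tom+/Pecam1- it was called in a fit of only the groups compared (adjusted p 0.0136) and without tumor repeat 4 (-0.51, adjusted p 0.0172), and its arrays there did not overlap those of muscle Tom-. Vegfb was called higher in Tom+/Pecam1- on deposited values only (0.43, adjusted p 8.63e-05).

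Whether the endothelial difference itself differed between the tissues was tested as the tumor Tom+/Pecam1+ minus Tom-/Pecam1- difference minus the muscle Tom+ minus Tom- difference. Of the 7 members, 1 was called higher and 0 lower, where 17.2% of all genes were called, 8.11% higher and 9.09% lower. Flt4 gave 1.17 (SE 0.31, adjusted p 0.0152), with a tumor difference of 3.32 and a muscle difference of 2.15, but 0.0683 with repeat number as a block. Kdr gave 0.99 (SE 0.36, adjusted p 0.0714) and Flt1 0.39 (SE 0.40, adjusted p 0.573). Without tumor repeat 4, 5 members were called: Flt4, Kdr (1.46, adjusted p 0.000219), Vegfc (1.12, adjusted p 0.0022), Flt1 (0.85, adjusted p 0.0226) and Pgf (-1.25, adjusted p 0.0273). Kdr was also called without the repeat 4 array of tumor Tom+/Pecam1+ (1.25) or of Tom-/Pecam1- (1.20) and without muscle Tom- repeat 3 (adjusted p 0.0446), after quantile normalization (1.13) and with array weights (1.22). Without muscle repeats 1 and 2, limma called 0 members, and Flt4 gave 0.86 (adjusted p 0.368). Of the 8 endothelial markers 7 were called higher and 1 lower in the same test, with a median of 1.55, beside 0.99 for the 3 receptors. The part of the markers in these results was not tested.

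The order of mean levels over the 5 populations, on the centred scale, showed which neighbours could not be separated. For Kdr, muscle Tom+ (11.37) and tumor Tom+/Pecam1+ (11.08) overlapped, as did the Pecam1- tumor populations (5.87 and 5.72), and muscle Tom- (6.98) lay between the pairs without overlap. For Flt1 the endothelial populations (11.53 in tumor, 11.42 in muscle) overlapped each other, and below them each neighbour overlapped the next (7.10 in muscle Tom-, 6.84 in Tom-/Pecam1- and 6.07 in Tom+/Pecam1-). For Flt4, tumor endothelium (8.99) and muscle Tom+ (8.11) did not overlap, and the remaining neighbours (5.95, 5.68 and 5.20, in the same order as Flt1) did. Vegfc had the same order of means as Kdr, with 9.67 and 9.63 in muscle and tumor endothelium, 7.57 in muscle Tom-, and 7.11 and 6.97 in Tom+/Pecam1- and Tom-/Pecam1-. Unlike for Kdr, arrays of Tom-/Pecam1- (up to 7.71) overlapped those of muscle Tom- (from 7.41).

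For Vegfa every neighbour overlapped the next: 8.59 in tumor Tom+/Pecam1-, 8.39 in muscle Tom-, 8.02 in Tom-/Pecam1-, 7.07 in muscle Tom+ and 6.52 in tumor endothelium. Vegfb ran from 8.15 in Tom-/Pecam1- through 8.06 in Tom+/Pecam1- and 7.96 in muscle Tom-, which overlapped, to 7.79 in tumor endothelium and 7.45 in muscle Tom+, which did not. Pgf ran through the 3 tumor populations (8.39 in Tom+/Pecam1-, 7.03 in Tom-/Pecam1- and 5.76 in Tom+/Pecam1+), each overlapping the next, and then muscle Tom- (5.09) and muscle Tom+ (4.48), which did not overlap each other. By mean level, the ligand transcripts Vegfa, Vegfb and Pgf were therefore highest in populations outside endothelium, the receptor transcripts in the Tom+ endothelium of both tissues, and the Flt4 ligand Vegfc in the same endothelial populations as Flt4. Protein and secretion were not measured.

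Across the 18 arrays, Vegfc correlated with Kdr at r = 0.98, Kdr with Flt1 at 0.98 and Flt1 with Flt4 at 0.97, while Vegfa correlated with Flt4 at -0.88 and Vegfb with Kdr at -0.87. These are descriptions over arrays that share 5 populations, so they restate the grouping. The genes most like each member, by Pearson r over the 18 centred arrays, were Myct1 (0.996), Cyyr1 and Mmrn2 for Kdr, Npr1 (0.996), Tmem88 and Fgd5 for Flt1, and Pkn3 (0.988), Hecw2 and Plpp1 for Flt4. For the ligands they were Daam2 (0.949), Notch3 and Ldb3 for Vegfa, Timp2 (0.974), Thbs2 and Igf1 for Vegfb, Numb (0.989), Tcim and Il6st for Vegfc, and Lrtm1 (0.970), Arhgef19 and Ngfr for Pgf. Lrtm1 had mean centred levels of 8.56 in tumor Tom+/Pecam1-, 7.02 in Tom-/Pecam1-, 5.73 in tumor endothelium, and 5.0 and 5.05 in muscle Tom- and Tom+, the same order as Pgf apart from the muscle populations. Myct1, a gene of endothelial cells, had 10.67 and 10.43 in muscle Tom+ and tumor endothelium, 6.25 in muscle Tom-, and 4.90 and 4.82 in the Pecam1- tumor populations.

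The neuropilins are coreceptors that hold VEGF ligands beside the kinase receptors, Nrp1 mainly for Vegfa and Nrp2 mainly for Vegfc. Nrp1 read 10.94, 10.91 and 11.01 in muscle Tom+ and 7.97, 8.03 and 7.96 in muscle Tom-. Among tumor arrays it read 11.01, 11.02, 10.81 and 10.45 in Tom+/Pecam1+, 10.16, 10.03, 10.08 and 10.13 in Tom+/Pecam1-, and 9.48, 9.61, 9.76 and 10.06 in Tom-/Pecam1-. Unlike the 3 receptors, Nrp1 was thus high in the Pecam1- tumor populations as well. It was higher than in muscle Tom- by 1.41 (SE 0.14, adjusted p 5.17e-07) in Tom-/Pecam1- and by 1.78 (SE 0.14, adjusted p 3.02e-08) in Tom+/Pecam1-. The endothelial difference was 2.97 (SE 0.14, adjusted p 5.35e-11) in muscle and 1.09 (SE 0.13, adjusted p 1.52e-06) against tumor Tom-/Pecam1-, and the difference between them was -1.88 (adjusted p 5.86e-06). Between the Pecam1- tumor populations Nrp1 was higher in Tom+ cells by 0.37 (adjusted p 0.0375), with overlapping arrays, a call that ended under 9 of 18 alternatives, the repeat block among them (adjusted p 0.127). Tumor endothelium itself was lower than muscle Tom+ by -0.49 (SE 0.14, adjusted p 0.0125), or by -0.13 (adjusted p 0.43) on deposited values and -0.35 (adjusted p 0.0554) after quantile normalization, so that call rests on the centring. The call also ended without muscle Tom+ repeat 3 (-0.44, adjusted p 0.0509) and without muscle repeats 1 and 2 (-0.57, adjusted p 0.103).

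Nrp2 differed by 2.78 (SE 0.22, adjusted p 2.09e-08) in muscle, 2.17 (SE 0.19, adjusted p 6.05e-08) against tumor Tom-/Pecam1- and 2.11 (SE 0.19, adjusted p 7.53e-08) against Tom+/Pecam1-. Its level was 8.94 to 9.34 in muscle Tom+ and 8.98 to 9.88 in tumor endothelium, 6.18 to 6.60 in muscle Tom- and 7.05 to 7.89 in the Pecam1- tumor populations. Endothelial arrays did not overlap the others. It was also higher than in muscle Tom- in both Pecam1- populations, by 0.69 (adjusted p 0.0122) and 0.75 (adjusted p 0.0074), but not without muscle repeats 1 and 2 (adjusted p 0.0726 and 0.058), and the former call ended without muscle Tom- repeat 3 (adjusted p 0.0511). Vegfd, the other Flt4 ligand, was low in both muscle populations (4.57 to 5.17). In tumor it read 7.89, 7.43, 7.19 and 8.66 in Tom-/Pecam1-, 7.64, 7.89, 7.63 and 6.40 in Tom+/Pecam1-, and 6.13, 6.34, 6.84 and 6.60 in Tom+/Pecam1+. Against muscle it was higher in all 3 comparisons, by 2.65 (adjusted p 7.11e-06), 2.25 (adjusted p 3.64e-05) and 1.47 (adjusted p 0.0027). The last call ended without muscle repeats 1 and 2 (1.41, adjusted p 0.0972). Vegfd and Pgf were called higher in each tumor population against its muscle counterpart, but for endothelium the Pgf call, with overlapping arrays and muscle arrays below the 40th percentile, ended under 5 of 18 alternatives. Vegfa was not called in any of these comparisons. In tumor Vegfd fell by 1.32 (SE 0.31, adjusted p 0.0022) in endothelium against Tom-/Pecam1- and by 0.92 (SE 0.31, adjusted p 0.0226) against Tom+/Pecam1-; the latter had an adjusted p of 0.0672 with the repeat block and also ended without any 1 of 5 arrays (Tom+/Pecam1- repeats 1, 2 and 3 and Tom+/Pecam1+ repeats 1 and 2).

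Genes linked to ligand processing or binding, listed together with the matrix protein gene Svep1, were counted next. Of 6 (Ccbe1, Adamts3, Furin, Plau, Adamts1 and Svep1), 0 were higher and 3 lower in muscle Tom+ cells (of all genes, 19.1% were higher and 20.5% lower). In tumor endothelium 1 was higher and 4 lower than in Tom-/Pecam1- (all genes 20.5% and 21.2%), and 1 higher and 2 lower than in Tom+/Pecam1- (all genes 44.6% called, 23.6% lower). Adamts3 in muscle (-0.83) lost its call with the repeat block (adjusted p 0.0764) and without muscle repeats 1 and 2 (adjusted p 0.35). Svep1, an extracellular matrix protein of lymphatic development, fell by 2.85 in muscle Tom+ against Tom- cells (7.21-fold, adjusted p 8.1e-11). In tumor endothelium it fell by 4.23 against Tom-/Pecam1- (18.7-fold, adjusted p 1.15e-13). Ccbe1 and Adamts3, which together activate Vegfc, were 2.79-fold and 2.29-fold lower in tumor endothelium than in Tom-/Pecam1- (adjusted p 0.0016 and 0.000563). They were also lower in Tom+/Pecam1- than in Tom-/Pecam1-, by -1.45 and -1.14 (adjusted p 0.0039 and 0.0021), so their tumor signal was highest in the unmarked cells. Adamts1, a protease that can bind VEGF, was 2.94-fold higher in tumor endothelium than in Tom-/Pecam1- (adjusted p 0.00034).

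Oxygen sensing genes control Vegfa through the hypoxia-inducible factors. Of 8 listed (Hif1a, Epas1, Arnt, Vhl, Egln1, Egln2, Egln3 and Hif1an), 3 were higher and 0 lower in muscle Tom+ (all genes 19.1% and 20.5%). In tumor endothelium 5 were higher and 1 lower than in Tom-/Pecam1- (all genes 20.5% and 21.2%). Against Tom+/Pecam1- 5 were higher and 2 lower (all genes 44.6% called). With the repeat block the count was 4 higher and 1 lower in each of these tumor comparisons. The muscle count was 2 higher and 0 lower both with the block and without muscle repeats 1 and 2, where Egln2 (0.31) lost its call (adjusted p 0.0719 and 0.326). Epas1, the HIF-2α gene and a factor of endothelium, rose by 1.49 in muscle Tom+ against Tom- cells (2.82-fold, adjusted p 1.7e-07). In tumor endothelium it rose by 1.97 against Tom-/Pecam1- (3.91-fold, adjusted p 6.32e-10). Hif1a rose by 0.67 in tumor endothelium against Tom-/Pecam1- (1.60-fold, adjusted p 5.26e-06). These endothelial populations also had the lowest mean Vegfa. Whether these genes had a part in the Vegfa result was not tested, and HIF protein was not measured. Of 11 genes that respond to hypoxia, 2 were higher and 4 lower in muscle Tom+ and likewise in tumor endothelium against Tom-/Pecam1-, beside the same shares of all genes. Against Tom+/Pecam1- 5 were higher and 4 lower, with a median of 0.32 (44.6% of all genes called, 23.6% lower). These counts show no clear direction. With the block the count was 1 higher and 4 lower in muscle. In tumor endothelium it was then 2 higher and 3 lower against Tom-/Pecam1-, and 5 higher and 3 lower against Tom+/Pecam1-. Among the 11 genes, Ndrg1 was 2.16-fold higher in tumor endothelium than in Tom-/Pecam1- (adjusted p 1.51e-06) and Vldlr 2.63-fold lower (adjusted p 0.000504). Tom+/Pecam1- cells had 1 of the 11 higher and 4 lower than Tom-/Pecam1- (all genes 13.4% and 12.0%). Vegfa itself was not called between these populations (limma difference 0.56, adjusted p 0.175). Macrophage and neutrophil markers were lower in the same comparison (medians -1.73 and -4.63), and their part was not tested. Vldlr rose by 1.39 (adjusted p 0.0013), and Adm, Slc2a1, Pdk1 and Ero1a fell by 0.88, 0.68, 0.47 and 0.42, and these 5 calls held with the block.

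Of 20 genes of receptor signalling, 9 were higher and 7 lower in muscle Tom+ (39.7% of all genes called, list median 0.082). In tumor endothelium 8 were higher and 10 lower than in Tom-/Pecam1- (41.7% of all genes called, list median -0.23). Against Tom+/Pecam1- 6 were higher and 7 lower (44.6% of all genes called, list median -0.052), and 6 higher and 5 lower with the block. Fold changes of single genes in tumor in this paragraph are for endothelium against Tom-/Pecam1-. The muscle count fell to 7 higher and 3 lower with the block and to 7 higher and 2 lower without muscle repeats 1 and 2. The genes with the smallest adjusted p were Nos3, endothelial nitric oxide synthase (8.30-fold and 11.0-fold higher), and Ptprb, a phosphatase that restrains Kdr and Tie2 (13-fold and 31.4-fold higher). In muscle Nck1, an adaptor of the receptor, was 3.84-fold higher, and in tumor Cdh5, a junction protein that associates with Kdr and is also in the endothelial list, was 35.6-fold higher. Of 9 genes that VEGF induces in endothelium (Rcan1, Egr3, Dusp5, Nfatc1, Dll4, Esm1, Apln, Angpt2 and Plvap), 6 were higher and 0 lower in muscle Tom+ (all genes 19.1% and 20.5%), 6 higher and 1 lower in tumor endothelium than in Tom-/Pecam1- (all genes 20.5% and 21.2%), and 6 higher and 0 lower than in Tom+/Pecam1- (all genes 44.6% called). Without muscle repeats 1 and 2, the muscle count was 3 higher and 0 lower. With the block it was 5 higher and 0 lower. Dll4, the Notch ligand of tip cells, was 13.5-fold higher in muscle Tom+ than Tom- cells (adjusted p 2.05e-11). It was 23.5-fold higher in tumor endothelium than in Tom-/Pecam1- (adjusted p 1.66e-13). Several of these genes mark endothelium whether or not VEGF acts, and VEGF activity was not measured.

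Between the endothelial populations, 2 of these 9 genes were higher in tumor and 1 lower, beside 34.2% of all genes called. Esm1, a secreted proteoglycan of tip cells, was 8.88-fold higher (adjusted p 1.02e-05) and Plvap, the diaphragm protein of fenestrated capillaries, 4.58-fold higher (adjusted p 8.83e-07), whereas Dll4 was 1.45-fold lower (adjusted p 0.0138). Of the 20 signalling genes 2 were higher and 2 lower. Ptprj, a phosphatase that acts on Kdr, was 2.73-fold higher (adjusted p 7.36e-06), Pik3r1 1.28-fold higher, and Pik3ca and Hspb1 were 1.53-fold and 1.40-fold lower. Of the hypoxia-responsive genes Slc2a1 and Ndrg1 were higher (1.52-fold and 1.41-fold) and Ldha, P4ha1 and Adm lower (1.61-fold, 1.70-fold and 1.69-fold). Without muscle repeats 1 and 2, the calls of Ndrg1 (adjusted p 0.14), Pik3r1 (0.192) and Hspb1 (0.0598) ended, and that of Hspb1 also with a random block (adjusted p 0.0549). Over all 57 genes of the pathway list, 10 were higher and 10 lower, with a median of 0.06.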

How the data were processed

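Values are the log2 intensities the authors deposited for 41345 probe sets on 18 arrays, made with RMA and Partek per the submitters' processing notes. The array build and the order of steps are not given in the sources used here. Probe sets with 1 gene symbol gave 22180 genes, each represented by its probe set with the highest mean. Genes with at least 3 arrays above their own 40th percentile (16011) were tested two-sided with limma 3.58.1 under R 4.3.3. Each population had its own mean in 1 fit of all arrays, with Benjamini-Hochberg adjustment over all genes tested and a threshold of 0.05. The fit had 13 residual degrees of freedom. Comparisons within a tissue used deposited values, and tumor against muscle used array-median centred values. The fit was tested on simulated data. Sequences were read and figures drawn with Python 3.11.15, pandas 2.3.3 and matplotlib 3.10.9.

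The named genes are the 7 members, Vegfd, Nrp1 and Nrp2, up to 3 genes with the smallest adjusted p per pathway list (every called gene where 5 or fewer were called), the marker genes, and the 3 genes most correlated with each member. Members and lists were chosen with earlier results of these data known. Arrays with the same repeat number deviated together in muscle (r 0.27 to 0.31, 3 pairs), so those numbers were taken to pair the samples in the repeat block. The main fit left this pairing out, so its p-values do not account for it. In tumor the check was void (r -0.72 to -0.17), since the mean of each repeat had been made equal in the deposited values. Alternatives changed the filter, scaling, probe set rule, variance model, weights, block and arrays used. For pathway genes, the block and the fit without muscle repeats 1 and 2 were run as alternatives added after seeing the data.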

Additional observations from a re-analysis of the deposited data

Results flagged for a closer look

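Of 30 groups of 4 tumor arrays (the members, Vegfd and the neuropilins in 3 populations), 4 had 1 array far from the others by Dixon's ratio of the gap to the range. For independent groups chance gives about 1 in 20. These groups are not independent, since populations of a repeat share a mean and genes correlate (Kdr with Flt1 at 0.98). The count therefore cannot show an excess over chance. In tumor Tom+/Pecam1+ cells, repeat 4 was low for Kdr (ratio 0.973) and Flt1 (ratio 0.973). In Tom+/Pecam1- cells, repeat 1 was low for Nrp2 (ratio 0.832) and repeat 4 was low for Vegfd (ratio 0.830). Repeat 4 is the day 38 tumor, so age and library cannot be told apart. The 3 tumor populations of each repeat had the same mean at every probe set. A deviation in 1 population therefore goes with opposite deviations in the others, and the population in which it arose cannot be told. The endothelial difference differed between the tissues by a test of the difference itself for Flt4 (1.17, adjusted p 0.0152, and 0.0683 with the repeat block) and for Nrp1 (-1.88, adjusted p 5.86e-06).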

How the results depend on the processing

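Over the 7 members and 8 comparisons, 973 of 1043 alternative results kept direction and side of the threshold, 37 lost and 20 gained a call, and 13 changed sign; 29 of 56 member results kept both under every alternative run. The cause of the changes was not tested, except that settings without arrays have fewer samples. For Tom+/Pecam1- against Tom-/Pecam1- in tumor, the 2 members called became 1 without the filter, with only the groups compared and without tumor repeat 4, and 1 to 2 leaving out 1 array. For the difference of differences, the 1 member called became 2 with quantile normalization or array weights, 5 without tumor repeat 4 and 1 to 2 leaving out 1 array. Without muscle repeats 1 and 2, members called fell to 1 in each tumor against muscle comparison and to 0 in the difference of differences. The number of genes called was then 3629 (6352 with all arrays) in muscle, 2769 (5482) between endothelial populations, 4960 (7545) for Tom+/Pecam1- against muscle Tom- and 958 (2754) in the difference of differences. On deposited values 8444 genes were called between endothelial populations.

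With the replicate block, members called fell from 2 to 0 (genes called 2693 against 4065) between the Pecam1- tumor populations and from 1 to 0 (genes called 1558 against 2754) in the difference of differences. It ended calls there of Pgf, Flt1, Nrp1 and Flt4 and that of Vegfd in tumor endothelium against Tom+/Pecam1-, and added Vegfc for Tom-/Pecam1- against muscle Tom-. It changed no other call of these 10 genes. For the named pathway genes, whose alternatives were chosen after seeing the data, the block ended 0 of 17 and 0 of 15 calls in tumor endothelium, 1 of 14 between the Pecam1- populations and 2 of 15 in muscle. Leaving out muscle repeats 1 and 2 ended 2 of 15 calls in muscle, 4 of 18 between endothelial populations and 12 of 13 in the difference of differences.

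Sign changes were all of differences without a call. Vegfc between endothelial populations became 0.045 with quantile normalization, 0.31 on deposited values, 0.17 with array weights, 0.10 without muscle repeats 1 and 2 and 0.26 without tumor repeat 4. On deposited values Kdr there became 0.069, and Flt1 and Flt4 in Tom-/Pecam1- against muscle Tom- became 0.070 and 0.065. Between the Pecam1- populations Vegfd became 0.22 without repeat 4. Leaving out 1 array, Vegfc and Nrp2 between endothelial populations ranged from -0.25 to 0.26 and from -0.055 to 0.25, Vegfc and Nrp2 between the Pecam1- populations from -0.049 to 0.38 and from -0.048 to 0.23, Vegfd in muscle from -0.28 to 0.017, and the Vegfa difference of differences from -0.55 to 0.26.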
